A study of Mus musculus with 16 samples.

Results

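In mouse ear skin, 6 epidermal keratin genes were followed across 4 groups: the suprabasal keratins Krt1, Krt10, Krt2 and Krt77 and the basal keratins Krt5 and Krt14. They were taken by gene symbol from a table of read counts over 48440 genes, and each symbol matched 1 entry, so that all 6 of 6 keratins were found. All 6 were among the 17604 genes that passed the filter on low counts. The ears came from B6 mice on a high-fat diet (HFD) or a normal diet (ND), with 4 mice in each of 4 groups. HFD_PMA ears were from HFD mice and received 200 ng of PMA, an irritant phorbol ester that acts through protein kinase C. ND_PMA ears were from ND mice and received the same dose. HFD_cont and ND_cont ears were from HFD and ND mice and are given as untreated. HFD feeding lasted 8 weeks and treated ears were collected 24 h after PMA. The labels do not say whether untreated ears received the solvent, and the sources used here do not give the sex or age of the mice. Ear tissue was homogenized as such, so each library mixes epidermis with dermis, cartilage, muscle and hair follicles.

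Keratins build the intermediate filaments of epithelial cells, and each filament needs a type I keratin bound to a type II keratin. In the epidermis Krt5 (type II) and Krt14 (type I) are made by the dividing basal cells, and Krt1 (type II) and Krt10 (type I) replace them as cells leave the basal layer and begin to cornify. Krt2, another type II keratin, belongs to the upper suprabasal layers and is prominent in mouse ear, and Krt77 is a type II keratin of mouse suprabasal epidermis that is close to Krt1.

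The type II genes lie together on chromosome 15 and the type I genes on chromosome 11 of the mouse genome (GRCm38), all on the minus strand. Krt5 spans chr15:101707070-101712898, Krt2 chr15:101810689-101818169, Krt1 chr15:101845426-101850794 and Krt77 chr15:101858731-101869705, with 9 exons each in the longest coding transcript. Krt10 spans chr11:99385254-99389364 and Krt14 chr11:100203162-100207548, with 8 exons each. Below are the 150 bases upstream of the RefSeq start of Krt10, Krt2, Krt77 and Krt5, from the RefSeq table for GRCm38.p6, 5′ to 3′ on the gene's strand. They are shown to give the letters around the start sites of 3 suprabasal keratins and 1 basal keratin. Capitals mark TATATA and TATAAA matches, including overlapping ones. All lie on the minus strand, at chr11:99389365-99389514 for Krt10, chr15:101818170-101818319 for Krt2, chr15:101869706-101869855 for Krt77 and chr15:101712906-101713055 for Krt5.
Krt10: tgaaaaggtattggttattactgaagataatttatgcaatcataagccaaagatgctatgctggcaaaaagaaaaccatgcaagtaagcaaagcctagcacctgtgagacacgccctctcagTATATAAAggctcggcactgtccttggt
Krt2: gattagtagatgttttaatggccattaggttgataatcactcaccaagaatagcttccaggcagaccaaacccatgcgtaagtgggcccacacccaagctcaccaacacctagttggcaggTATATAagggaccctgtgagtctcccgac
Krt77: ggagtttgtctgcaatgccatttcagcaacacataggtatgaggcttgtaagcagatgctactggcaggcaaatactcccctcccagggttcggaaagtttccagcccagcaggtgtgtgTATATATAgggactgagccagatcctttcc
Krt5: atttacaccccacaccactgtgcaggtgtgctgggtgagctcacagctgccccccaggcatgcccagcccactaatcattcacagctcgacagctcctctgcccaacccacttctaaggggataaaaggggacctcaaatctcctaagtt
The letters TATATA began 28 bases upstream of the start of Krt10, 29 bases upstream of Krt2, and 30 and 28 bases upstream of Krt77. In Krt10 a TATAAA match at 26 bases overlapped the TATATA match. Of the 5 keratins in the RefSeq table (Krt1 was not among them), these 3 held TATATA within 250 bases, searched on both strands, as did 5.25% of 32817 promoters. CCAAT was found in Krt10 and Krt2, and in 33.8% of promoters. TGANTCA, the letters of an AP-1 site, was found in 0 of the 5 keratins and in 6.75% of promoters. CCACCC, the letters of a KLF site, was found in Krt10 and Krt14, and in 28.1% of promoters. TTNNGNAA, the letters of a C/EBP site, was found in Krt10, Krt14, Krt2 and Krt77, and in 36.8% of promoters. The Krt14 window is counted among the 5 but is not shown. The RefSeq start used there lies 1518 bases inside the gene as drawn by the annotation used for the coordinates.

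Each keratin was deeply counted. The libraries held 7739487 to 15571389 counts, the 6 keratins took 3.38% to 5.01% of them, and the lowest count of any keratin in any library was 1141, for Krt77. Krt2 had more counts than any other gene in 15 of 16 libraries, and in the other (HFD_PMA replicate 2) Krt14 did. The library identifiers fall in 2 series, one beginning RHS and one RHP, whose meaning the labels do not give. All 4 ND_cont libraries and HFD_cont replicate 1 are RHS and the other 11 are RHP, so that in ND mice PMA and the identifier series cannot be told apart. Fits with the identifier series as a covariate, given below, take its effect from HFD_cont alone, where 1 RHS library stands against 3 RHP libraries. Hair shaft and root sheath markers (12 genes) summed to 3442 CPM (counts scaled to library size) in HFD_PMA replicate 1 and to 2660, 1861 and 646 CPM in HFD_cont replicates 1, 2 and 4, against at most 154 CPM in the other 12 libraries. Fibroblast markers (8 genes, none of them at 0) summed to 4132 to 6458 CPM in HFD_PMA, 6928 to 9696 CPM in ND_PMA, 5922 to 6973 CPM in HFD_cont and 9158 to 11729 CPM in ND_cont. Genes of the desmosome, the junction that keratin filaments attach to, summed to similar levels: 14208 to 14811, 11162 to 15980, 14965 to 15489 and 13371 to 15082 CPM in the same order. In bulk tissue, fewer cells of a type and less RNA per cell cannot be told apart.

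Krt1 was the keratin that differed most between diets. It had 3545, 3066, 2835 and 2535 CPM in HFD_PMA ears, against 921, 964, 1024 and 1269.6 CPM in ND_PMA ears. In untreated ears it had 2439, 3094, 1823 and 1481 CPM with HFD, against 477, 434, 821 and 657 CPM with ND. Every HFD library lay above every ND library of either treatment. Between the diets Krt1 was 2.87-fold higher in PMA-treated HFD skin (log2 1.52 ± 0.21 SE, adjusted p = 0.00115) and 3.70-fold higher in untreated HFD skin (log2 1.89 ± 0.21, adjusted p = 3.85e-05). These and all adjusted p-values below without another name come from edgeR's quasi-likelihood test with Benjamini-Hochberg adjustment over the 17604 genes, called below 0.05. Of the group means, 2995 ± 426 CPM in HFD_PMA and 2209 ± 711 CPM in HFD_cont overlapped in their libraries, while 1045 ± 156 CPM in ND_PMA and 597 ± 178 CPM in ND_cont did not (SD, n = 4 each). In ND mice Krt1 was 1.75-fold higher with PMA (log2 0.81 ± 0.21, adjusted p = 0.0121), and in HFD mice the difference was log2 0.44 ± 0.21 (adjusted p = 0.196). The ND call was lost without ND_cont replicate 2 (log2 0.64, adjusted p = 0.065) and with the identifier series as a covariate (log2 1.00, adjusted p = 0.218). Both diet calls held in every setting run. HFD_cont replicate 1, the only HFD library of the RHS series, had 2439 CPM against 434 to 821 CPM in the 4 RHS libraries of ND_cont, and HFD_cont replicate 3, with 78.6 CPM of hair markers, had 1823 CPM.

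Krt10, the type I partner of Krt1, was highest in untreated HFD skin. It had 6575, 7014, 6415 and 5660.3 CPM in HFD_cont ears, against 4221, 4326, 4253 and 3863 CPM in ND_cont ears. In PMA-treated ears it had 4293, 3733, 5586 and 5751 CPM with HFD, against 3725, 3278, 4112 and 4281 CPM with ND. The untreated diets did not overlap, whereas under PMA HFD replicate 2 lay within the ND range, replicate 1 just above it and replicates 3 and 4 well above it. Krt10 was 1.54-fold higher with HFD in untreated skin (log2 0.62 ± 0.13, adjusted p = 0.00901), while under PMA the diet difference was log2 0.33 ± 0.13 (adjusted p = 0.201). The untreated difference was log2 0.66 with the identifier series as a covariate, where it was no longer called (adjusted p = 0.157), and 0.51 (adjusted p = 0.0539) when libraries were scaled by desmosome genes. PMA lowered Krt10 in HFD mice (log2 -0.41 ± 0.13, adjusted p = 0.0456), close to the threshold, and the highest HFD_PMA library passed the lowest HFD_cont library. That call was lost in 9 of 16 fits that left out 1 library, with adjusted p up to 0.136 without HFD_PMA replicate 2 (log2 -0.32). Those 9 fits left out HFD_PMA replicates 1 and 2, ND_PMA replicates 1 and 3, HFD_cont replicates 1 to 3, or ND_cont replicates 1 and 2. In ND mice the PMA difference of Krt10 was log2 -0.11 ± 0.13 (adjusted p = 0.651).

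Krt2, the upper suprabasal type II keratin, held on average the highest level of the 6 per kilobase of transcript in untreated skin. It had 27488, 24117, 25902 and 22703 CPM in HFD_cont ears, against 19314, 19714, 18956 and 21701 CPM in ND_cont ears. In PMA-treated ears it had 15019, 11802, 23249 and 23279 CPM with HFD, against 17901, 17408, 22363 and 23278 CPM with ND. The untreated diets did not overlap, but the fitted difference was log2 0.33 ± 0.17 and did not pass the test (adjusted p = 0.342). The HFD_PMA libraries fell into 2 that were lower than any other library (replicates 1 and 2) and 2 near the highest ND_PMA library. The PMA difference was log2 -0.45 ± 0.17 in HFD mice (adjusted p = 0.0964) and 0.02 ± 0.17 in ND mice (adjusted p = 0.957). The HFD value was past the threshold with DESeq2 (log2 -0.47, adjusted p = 0.0482), with a replicate block (log2 -0.49, adjusted p = 0.0471) and among genes of at least 5 CPM in 4 libraries (log2 -0.48, adjusted p = 0.0493), all with every library kept. It was also past the threshold without HFD_PMA replicate 3 (log2 -0.59, adjusted p = 0.0387) or replicate 4 (log2 -0.60, adjusted p = 0.0262). These were 2 of 16 fits that left out 1 library and 3 of 12 other settings. Without HFD_PMA replicate 2 the difference was log2 -0.31, and adjusted p reached 0.247 over those 16 fits. The adjusted p was 0.252 within the RHP libraries, 0.202 with the identifier series as a covariate and 0.162 when libraries were scaled by desmosome genes. With PMA, the diet difference was log2 -0.14 ± 0.17 (adjusted p = 0.767), and 0.04 without HFD_PMA replicate 2. Per kilobase Krt2 averaged 7018 CPM in HFD_PMA, 7745 CPM in ND_PMA, 9588 CPM in HFD_cont and 7624 CPM in ND_cont.

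Krt77 was the least abundant of the 6 per kilobase, and its coefficient of variation among libraries was the highest of the 6 in 3 of 4 groups (HFD_cont was the exception). It had 154, 90.7, 284 and 337 CPM in HFD_PMA ears, 421, 449.7, 276 and 304 CPM in ND_PMA ears, 289, 451, 414 and 512 CPM in HFD_cont ears and 316, 328, 693 and 486 CPM in ND_cont ears. All 4 groups overlapped with their neighbours in level. The largest fitted difference was that of PMA in HFD mice (log2 -0.94 ± 0.35, adjusted p = 0.101), which was past the threshold without HFD_PMA replicate 4 (log2 -1.26, adjusted p = 0.0329). That was 1 of 16 fits that left out 1 library. Without HFD_PMA replicate 2 the difference was log2 -0.71, and adjusted p reached 0.234 over the 16 fits. The PMA difference in ND mice was log2 -0.33 ± 0.35 (adjusted p = 0.623). The diet differences were log2 -0.75 ± 0.35 with PMA (adjusted p = 0.323) and -0.13 ± 0.35 without it (adjusted p = 0.912).

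**Figure D1:**
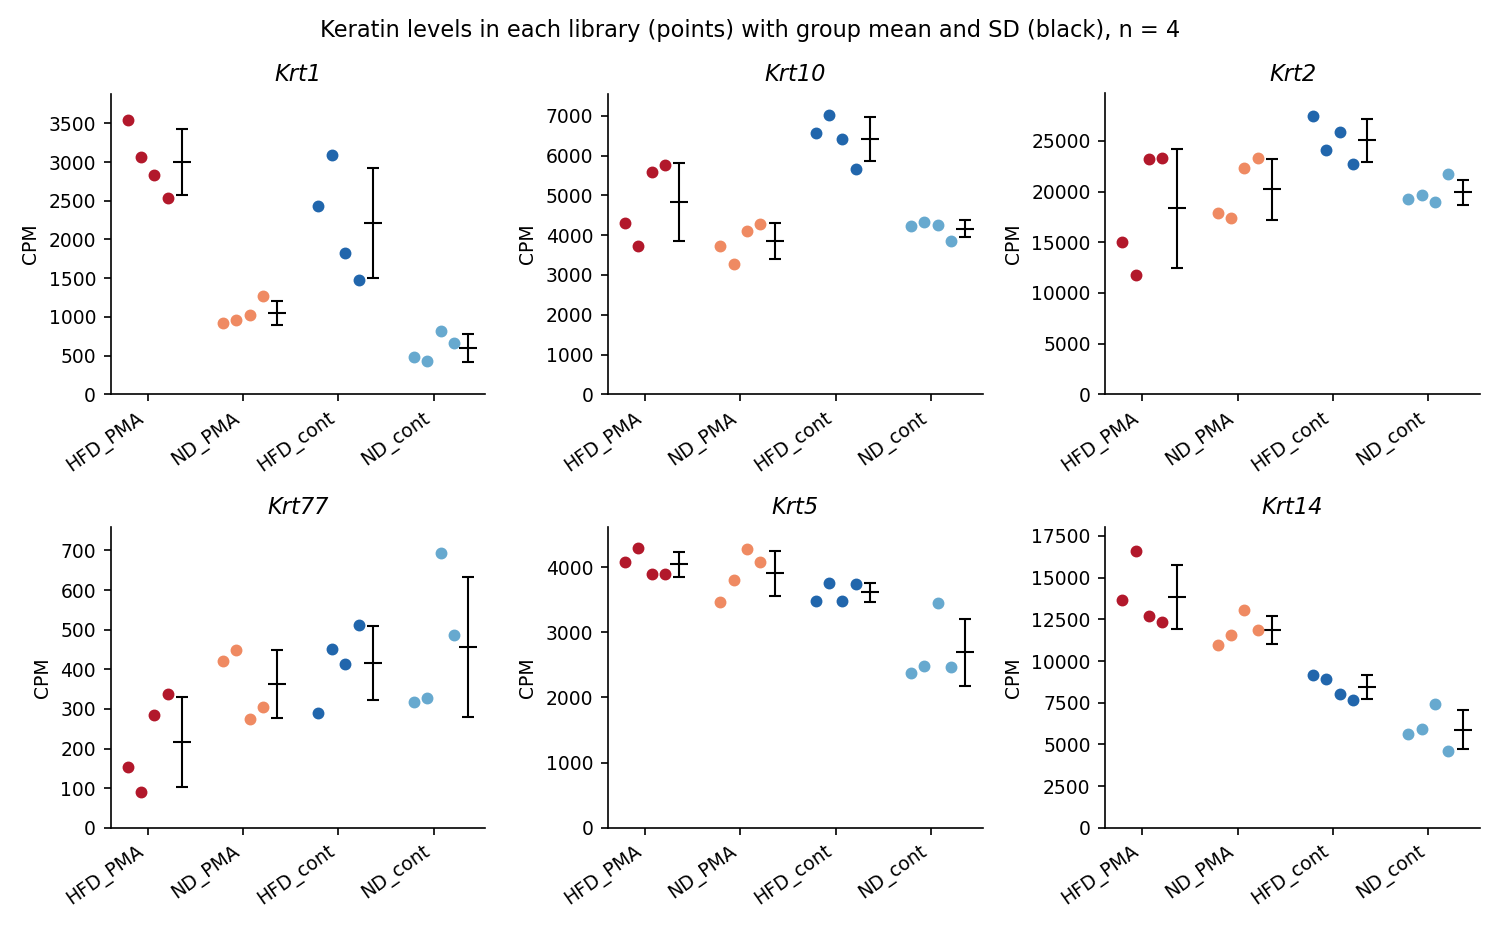
Normalised read counts (CPM) of the 6 keratins in each of the 16 libraries (points, 1 colour a group) with the group mean and SD in black (n = 4). Krt1 lies higher in both HFD groups than in both ND groups, and Krt14 lies higher in both PMA groups than in both untreated groups.

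Krt14, the basal type I keratin, separated treated from untreated skin. It had 13677, 16579, 12703 and 12369 CPM in HFD_PMA ears, against 9135, 8901, 8042 and 7643 CPM in HFD_cont ears. In ND mice it had 10989, 11553, 13034 and 11855 CPM with PMA, against 5619, 5921, 7396 and 4583 CPM in untreated ears. All 8 treated libraries lay above all 8 untreated ones. PMA raised Krt14 1.64-fold in HFD mice (log2 0.71 ± 0.13, adjusted p = 0.0012) and 2.02-fold in ND mice (log2 1.01 ± 0.13, adjusted p = 2.98e-05). Both calls held in every setting run. With the identifier series as a covariate the ND value was log2 1.17 (adjusted p = 0.0138), and within the RHP libraries the HFD value was log2 0.75 (adjusted p = 0.00113). In untreated skin Krt14 was 1.43-fold higher with HFD (log2 0.52 ± 0.13, adjusted p = 0.0293) and the diets did not overlap. This call was lost with the identifier series as a covariate (log2 0.64, adjusted p = 0.177) and without HFD_cont replicate 1, 2 or 3 or ND_cont replicate 1, 2 or 4 (log2 0.42 to 0.54, adjusted p from 0.0542 to 0.0982). With PMA, the diet difference of Krt14 was log2 0.22 ± 0.13 (adjusted p = 0.45).

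Krt5, the basal type II partner, was lowest in untreated ND skin. It had 4079, 4291, 3902 and 3898 CPM in HFD_PMA ears, 3469, 3802, 4275 and 4075 CPM in ND_PMA ears, 3486, 3752, 3481 and 3736 CPM in HFD_cont ears and 2369, 2481, 3456 and 2467 CPM in ND_cont ears. ND_cont replicate 3 stood 975 CPM above the next ND_cont library and 25.4 CPM below the lowest HFD_cont library. PMA raised Krt5 1.45-fold in ND mice (log2 0.54 ± 0.11, adjusted p = 0.00333). In HFD mice the treated and untreated libraries did not overlap, yet the difference was small, log2 0.16 ± 0.11, and did not pass the test (adjusted p = 0.432). In untreated skin Krt5 was 1.34-fold higher with HFD (log2 0.42 ± 0.11, adjusted p = 0.0415), and it was not called with the identifier series as a covariate (log2 0.37, adjusted p = 0.467) or in a fit of the 8 untreated libraries alone (log2 0.43, adjusted p = 0.0656). That call was lost in 11 of 16 fits that left out 1 library, with adjusted p up to 0.122 without ND_cont replicate 4 (log2 0.38), and it held without ND_cont replicate 3 (log2 0.58, adjusted p = 0.00386). The 5 fits that kept it left out ND_cont replicate 3, HFD_PMA replicate 1 or 3, or ND_PMA replicate 1 or 2. With PMA, the diet difference of Krt5 was log2 0.05 ± 0.11 (adjusted p = 0.89). The ND call for PMA was lost with the identifier series as a covariate (log2 0.47, adjusted p = 0.348) and in a fit of the 8 ND libraries alone (log2 0.50, adjusted p = 0.0519).

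Counted by comparison, HFD raised 1 of the 6 keratins in PMA-treated skin (Krt1), where 2.2% of all genes tested were called. In untreated skin HFD raised 4 of 6 (Krt1, Krt10, Krt5 and Krt14) and lowered 0, where 3.93% of genes were called. PMA in HFD mice raised Krt14 and lowered Krt10, 2 of 6 against 11.9% of genes (7.34% higher and 4.6% lower). PMA in ND mice raised 3 of 6 (Krt1, Krt5 and Krt14) and lowered 0, against 12.9% of genes (8.96% higher and 3.99% lower). The groups did not overlap for 5 of 6 keratins between untreated diets (12.6% of genes), 1 of 6 between diets with PMA (8.63%), 2 of 6 for PMA in HFD mice (18.8%) and 3 of 6 for PMA in ND mice (16.8%). The median log2 change of the 6 was 0.14 for diet with PMA, 0.47 for diet without PMA, -0.12 for PMA with HFD and 0.28 for PMA with ND, and that of all genes tested was -0.03, -0.02, -0.02 and 0.00 in the same order. With the identifier series as a covariate, 1 keratin was called between untreated diets (Krt1), 1 for PMA in HFD mice (Krt14) and 1 for PMA in ND mice (Krt14). Fewer genes were then called in the whole table too: 179 against 691 between untreated diets and 453 against 2279 for PMA in ND mice. For PMA in HFD mice all genes called were 1760 to 2705 over the settings other than leaving out 1 library, against 2101.

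**Figure D2:**
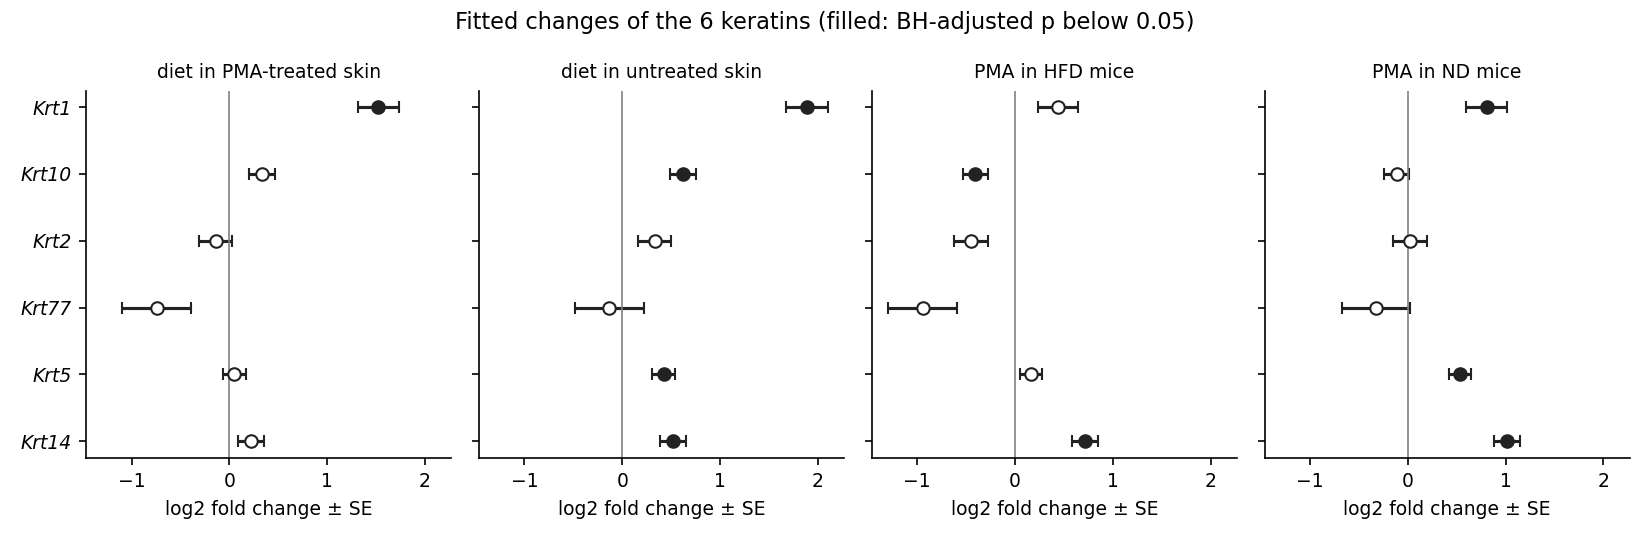
Fitted log2 fold changes with their SE (x axis) of the 6 keratins (y axis) in 4 comparisons: HFD over ND with PMA and untreated, and PMA over untreated in HFD and ND mice. Filled points have an adjusted p below 0.05, and only Krt1 passes in both diet comparisons and only Krt14 in both PMA comparisons.

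The difference between the diet effects with and without PMA was tested as an interaction. It was called for 0 of the 6 keratins by edgeR's quasi-likelihood test and by DESeq2, and edgeR called 1 of all genes (0.00568%) against 24 with DESeq2. The interaction was negative for each of the 6: log2 -0.37 for Krt1, -0.29 for Krt10, -0.47 for Krt2, -0.61 for Krt77, -0.37 for Krt5 and -0.30 for Krt14. The median interaction was log2 -0.37 for the 6 and -0.04 for all genes tested. Some of the 6 varied together within groups, as given below, so their signs are not independent. All adjusted p-values of the 6 were 0.999. At an unadjusted p under 0.05 it passed for 1 of 6, Krt5 (unadjusted p = 0.0319 in edgeR), and for 4.63% of genes. A diet call without PMA and none with PMA does not by itself show a difference between the diet effects. Being called or not is no test of that difference.

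The ratio of a type II keratin to its type I partner within a library does not depend on library size. All ratios below are of counts per kilobase of transcript. Krt1 to Krt10 was 0.714, 0.710, 0.439 and 0.381 in HFD_PMA libraries, against 0.214, 0.254, 0.215 and 0.256 in ND_PMA libraries. In untreated skin it was 0.321, 0.381, 0.246 and 0.226 with HFD, against 0.0976, 0.0867, 0.167 and 0.147 with ND. Every HFD library was above every ND library of the same treatment, and HFD_PMA replicates 1 and 2 were highest of all. On the log2 scale the ratio was higher with HFD by 1.20 ± 0.25 with PMA and by 1.26 ± 0.29 without PMA (SE, exact two-sided permutation p = 0.0286 each). That p is the smallest that 70 arrangements of 4 against 4 allow, and it is 0.0381 adjusted over the 8 ratio tests made. PMA raised the ratio in ND mice by log2 0.96 ± 0.24 (exact permutation p = 0.0286, adjusted 0.0381). In HFD mice the difference was 0.91 ± 0.29 and the libraries overlapped (exact permutation p = 0.0571, adjusted 0.0653), and the exact permutation p was 0.0286 without HFD_PMA replicate 4. Leaving 1 library out leaves 35 arrangements, so that exact p-values move in steps of 0.0286. The diet difference with PMA was 1.16 without ND_PMA replicate 1 or 3 (exact permutation p = 0.0571), and the PMA difference in ND mice was 0.92 to 1.01 without any 1 of the 4 ND_PMA libraries (exact permutation p = 0.0571 each).

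Krt5 to Krt14 moved with PMA. It was 0.239, 0.208, 0.247 and 0.253 in HFD_PMA libraries, against 0.306, 0.338, 0.348 and 0.392 in HFD_cont libraries. In ND mice it was 0.253, 0.264, 0.263 and 0.276 with PMA, against 0.338, 0.336, 0.375 and 0.432 in untreated skin. All treated libraries were below all untreated ones. The ratio fell by 0.55 ± 0.10 on the log2 scale in HFD mice and by 0.48 ± 0.09 in ND mice (exact permutation p = 0.0286 each, adjusted 0.0381). Between diets it fell by 0.16 ± 0.07 with PMA, where the groups just failed to overlap at 0.253 (exact permutation p = 0.0286, adjusted 0.0381), and it fell by 0.10 (exact permutation p = 0.0571) without HFD_PMA replicate 2. Without any 1 ND_PMA library it fell by 0.14 to 0.18, at 2 to 4 of 35 arrangements (exact permutation p = 0.0571 to 0.114). The untreated difference was -0.10 ± 0.11 (exact permutation p = 0.457). In all 16 libraries Krt14 outnumbered Krt5 per kilobase.

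The make-up of the suprabasal type II keratins was described without a test. Krt1 made up 15.8% ± 5.80 of the Krt1, Krt2 and Krt77 counts per kilobase in HFD_PMA, 5.16% ± 0.398 in ND_PMA, 8.44% ± 2.48 in HFD_cont and 3.04% ± 0.898 in ND_cont (SD, n = 4 each). Krt2 made up nearly all of the rest, from 77.9% in HFD_PMA replicate 2 to 96.3% in ND_cont replicate 2. Krt2 to Krt10 was 3.01 ± 0.381 in HFD_PMA, 4.25 ± 0.244 in ND_PMA, 3.17 ± 0.265 in HFD_cont and 3.88 ± 0.442 in ND_cont, and every HFD library lay below every ND library of the same treatment. Krt10 to Krt14, the suprabasal against the basal type I keratin, was 0.300 ± 0.0932 and 0.270 ± 0.0276 in HFD_PMA and ND_PMA skin, against 0.633 ± 0.0311 and 0.603 ± 0.0925 in HFD_cont and ND_cont skin. The sum of the 4 type II keratins over the sum of the 2 type I keratins was 1.01 ± 0.250 in HFD_PMA, 1.17 ± 0.0897 in ND_PMA, 1.57 ± 0.0664 in HFD_cont and 1.77 ± 0.312 in ND_cont.

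**Figure D3:**
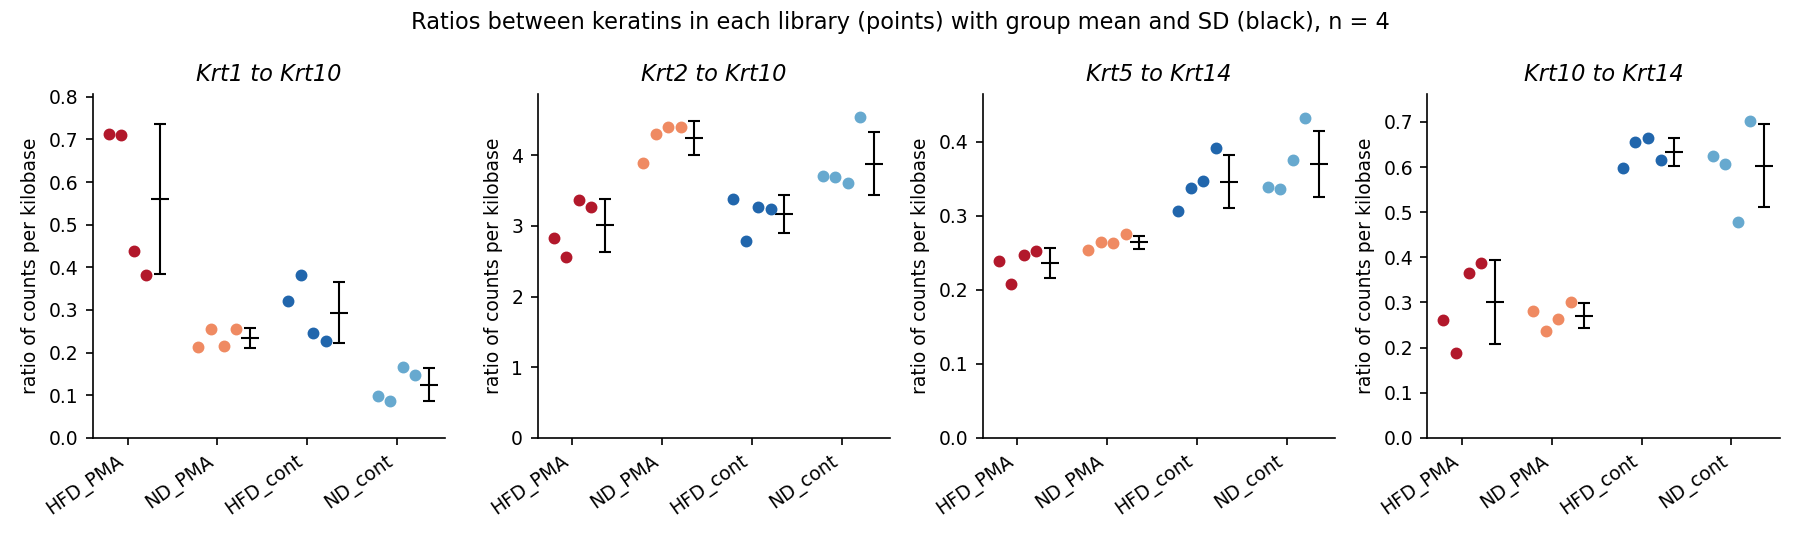
Ratios of counts per kilobase between keratins in each of the 16 libraries (points) with the group mean and SD in black (n = 4). Krt1 to Krt10 is higher in HFD than in ND at either treatment, and Krt5 to Krt14 and Krt10 to Krt14 are lower in PMA-treated than in untreated skin.

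Within groups, the keratins varied in 2 sets. After subtraction of group means of log2 CPM over the 16 libraries, Krt10 and Krt2 had a Pearson r of 0.88 and Krt5 and Krt14 one of 0.72, while Krt1 had 0.10 with Krt10, -0.03 with Krt2 and 0.54 with Krt5. These are descriptions over 16 libraries that share total depth scaling, with no test. Most of the spread of the first set lay in HFD_PMA, where replicates 1 and 2 were low in Krt2, Krt10 and Krt77 and high in Krt1 and Krt14 beside replicates 3 and 4. HFD_PMA replicate 1 carried the hair markers named above and replicate 2 did not (126 CPM).

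**Figure D4:**
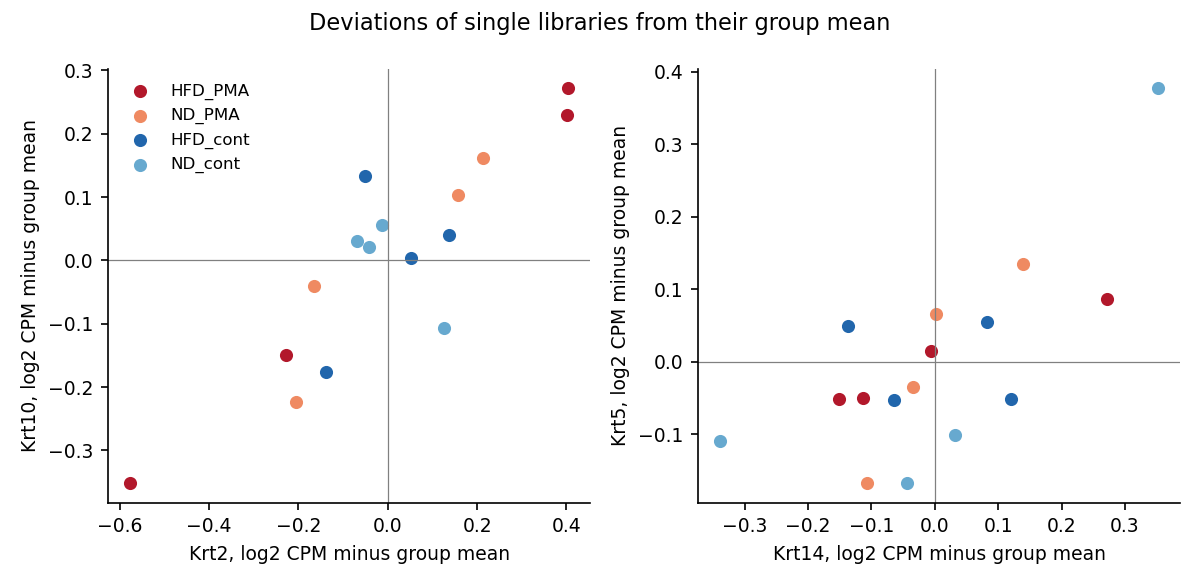
Deviation of each of the 16 libraries from its group mean of log2 CPM, for Krt10 against Krt2 (left) and Krt5 against Krt14 (right), coloured by group. HFD_PMA libraries lie at both ends of the left plot, and the library at the top right of the right plot is ND_cont replicate 3.

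Over all 16 libraries, the genes whose log2 CPM followed each keratin most closely were ranked by Pearson r among 11616 genes, as a description. Krt1 was followed by Casp14 (r = 0.94), the caspase of cornification that takes part in filaggrin breakdown, by the chitinase gene Chit1 (0.93) and by the keratin Krt84 (0.93). Krt10 was followed by Kctd4 (0.94), the late cornified envelope gene Lce1f (0.92) and Gid8 (0.91). Krt2 was followed most closely by Hal (0.84), which encodes the histidine-degrading enzyme histidase, and then by Esyt3 and Kctd5 (0.80 each). Krt77 was followed by Alox12e (0.91), a lipoxygenase gene, Pepd (0.89) and H2-Q6 (0.88). Krt5 was followed by Hars (0.93), Rcc1 (0.92) and the chaperone gene Hsp90ab1 (0.91), and Krt14 by the tubulin gene Tuba1c, Rcc1 and the glycolytic enzyme gene Eno1 (0.98 each).

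Genes of suprabasal differentiation (13 listed, all tested) were set beside Krt1 and Krt10. With HFD, 6 rose and 0 fell in untreated skin (median log2 0.69), and 2 rose and 0 fell in PMA-treated skin (median 0.24). Flg, the filaggrin gene, averaged 679 ± 185 CPM in HFD_cont against 155 ± 23.5 CPM in ND_cont (log2 2.13 ± 0.23, adjusted p = 2.1e-05), and 348 ± 109 CPM in HFD_PMA against 133 ± 33.3 CPM in ND_PMA (log2 1.39 ± 0.22, adjusted p = 0.00285). Casp14 averaged 322 ± 94.3 CPM in HFD_cont against 108 ± 11.2 CPM in ND_cont (log2 1.57 ± 0.21, adjusted p = 0.000239). Lor, the loricrin gene, averaged 1127 ± 72.1 CPM in HFD_cont against 543 ± 125 CPM in ND_cont (log2 1.05 ± 0.19, adjusted p = 0.00289). PMA in HFD mice raised 1 and lowered 5 of the 13 (median -0.19), and those that fell included Flg2 at log2 -1.40, Lor at -1.05 and Flg at -0.97 (adjusted p = 0.00354, 0.00102 and 0.00584). PMA in ND mice raised 4 and lowered 0 (median 0.14), the largest being Lgals7 at log2 0.85 and the envelope crosslinker Tgm1 at 0.68 (adjusted p = 0.0237 and 0.00014).

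Adhesion and identity genes of basal keratinocytes (12 listed, all tested) were set beside Krt5 and Krt14. In untreated skin, where HFD raised both keratins, 0 of the 12 rose and 2 fell (median log2 -0.33). These were Lamb3, a laminin chain gene, with 211 ± 23.4 CPM in HFD_cont against 320.1 ± 22.6 CPM in ND_cont (log2 -0.60 ± 0.11, adjusted p = 0.00308), and Col17a1, a hemidesmosomal collagen gene, with 2144 ± 102 CPM against 2920.4 ± 359 CPM (log2 -0.45 ± 0.11, adjusted p = 0.03). With PMA, Col17a1 fell with HFD (log2 -0.47 ± 0.11, adjusted p = 0.031), alone of the 12 (median -0.14). PMA in ND mice raised Cd151 and lowered 4 of 12 (median -0.10), including Lamb3 (log2 -0.79, adjusted p = 5.55e-05), Dst, the plakin gene whose skin product links keratin filaments to hemidesmosomes (-0.76, adjusted p = 0.00119), and Lama3 (-0.60, adjusted p = 0.00379). PMA in HFD mice lowered Dst and Col17a1 (log2 -0.63 and -0.41, adjusted p = 0.00606 and 0.022), with a median of 0.16.

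Of 20 other epithelial keratins, 16 were tested, and Krt9 and Krt76 had 0 counts in all libraries. PMA raised the same 4 in both diets, the wound-associated Krt6a, Krt6b, Krt16 and Krt17, and lowered 6 in HFD and 5 in ND mice (median log2 -0.50 and -0.35). Krt16 averaged 3609 ± 1231 CPM in HFD_PMA, 2332 ± 659.6 CPM in ND_PMA, 236 ± 115 CPM in HFD_cont and 39.8 ± 41.7 CPM in ND_cont. Krt17 averaged 4156 ± 1141 CPM, 3091 ± 691 CPM, 1339 ± 157 CPM and 642 ± 130 CPM in the same groups. In untreated skin HFD raised Krt16, Krt17 and the hair follicle keratin Krt79 and lowered 0 of the 16 (log2 2.57, 1.06 and 1.04, adjusted p = 0.0367, 0.00254 and 0.00204, median 0.11). With PMA, 0 rose with HFD and 1 fell, Krt19, which averaged 0.0241 CPM in HFD_PMA and 2.49 CPM in ND_PMA (median 0.22). Krt14 shares 13.9% of its 50-base transcript stretches with Krt16 or Krt17, and Krt5 shares 8.52% with Krt6a, Krt6b and a pair of predicted genes, so that reads in those stretches may not be assigned with certainty, and their part in the PMA values was not tested. Krt1, Krt10, Krt2 and Krt77 share 0 such stretches with another gene.

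Keratin filaments end on desmosomes, and transcription factors such as Klf4 control the differentiation programme in which suprabasal keratins are made. Of 14 desmosome and plakin genes 0 were called in either diet comparison (medians 0.05 with and 0.05 without PMA) or for PMA in ND mice (0.07). PMA in HFD mice raised the desmosomal cadherin genes Dsc2 and Dsg3 (log2 1.76 and 1.14, adjusted p = 0.00274 and 0.00102) and lowered Ppl, the periplakin gene (-0.39, adjusted p = 0.0309), with a median of -0.03. Of 20 regulators of epidermal differentiation, HFD raised 5 in untreated skin (median 0.20), including Klf4 (log2 0.62, adjusted p = 0.0167), Grhl3 (0.56, adjusted p = 0.0203) and Cebpa (0.56, adjusted p = 0.0157). With PMA 0 of 20 were called between diets (median 0.10). PMA lowered Jag2, a Notch ligand gene, in HFD mice (log2 -0.64, adjusted p = 0.00647, median of the list -0.18), and in ND mice lowered Ahr (-0.51, adjusted p = 0.0485, median 0.02).

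RNA of markers of other cell types and tissues also differed with diet and PMA. HFD lowered 5 of 8 fibroblast markers in untreated skin and 4 of 8 with PMA, and raised 0 (median log2 -0.59 and -0.54). The collagen gene Col1a1 averaged 1384 ± 257 CPM in HFD_cont against 3000.2 ± 638 CPM in ND_cont (log2 -1.12, adjusted p = 0.0083). Neutrophil markers summed to 289 to 1212 CPM in HFD_PMA and 81.9 to 256 CPM in ND_PMA. In untreated skin they summed to 23.6 to 59.6 CPM in HFD_cont and 12.6 to 24.0 CPM in ND_cont. S100a8 and S100a9 averaged 363 and 176 CPM of a mean sum of 631 CPM in HFD_PMA. Mpo and Elane were at 0 in HFD_PMA, and Ly6g was at 0 in every other group. Of 6 tested neutrophil markers, HFD raised 1 in untreated skin, and 0 were called between diets with PMA. PMA raised 5 and lowered 1 in HFD mice, and raised 4 and lowered 0 in ND mice. Of 12 hair markers HFD raised 1, Krt34, in untreated skin, and 0 were called in the other comparisons of diet or PMA. PMA lowered 4 of 5 tested cartilage markers, 3 of 5 adipocyte markers, 3 of 6 muscle markers and 2 of 7 sebocyte markers in HFD mice, and 1, 3, 0 and 1 of them in ND mice. HFD lowered 4 of 5 cartilage markers and 1 of 5 adipocyte markers with PMA, and 0 of either in untreated skin, and 0 muscle or sebocyte markers were called between diets. Of 5 endothelial and 5 melanocyte markers 0 were called in these 4 comparisons. Of 7 macrophage markers HFD lowered 2 with PMA and 1 without it, and PMA raised 2 in HFD and 3 in ND mice. The part of these shifts in the keratin levels in CPM was not tested. When libraries were scaled by desmosome genes, Krt1 was still called in both diet comparisons (log2 1.45 with PMA, adjusted p = 0.00202, and 1.79 without, adjusted p = 8.62e-05) and Krt14 in both PMA comparisons. In untreated skin the diet differences of Krt5 and Krt14 were then log2 0.32 and 0.41 and were not called (adjusted p = 0.227 and 0.184).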

How the data were processed

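RNA of whole ear skin was made into SMART-Seq2 libraries, which keep no strand and have no molecular identifiers, and read paired-end, per the labels' protocols. The deposited values are raw counts per gene, made by the authors with STAR 2.3 and featureCounts 1.5 on GRCm38 per the submitters' processing notes; the sources used here give neither the annotation release nor the counting options. Counts were filtered with filterByExpr (at least 10 counts, 15 in total), TMM-scaled and fitted with edgeR 4.0.16 in R 4.3.3 as 4 group means over 16 libraries (limma 3.58.1; DESeq2 1.42.0 as an alternative). CPM use TMM-scaled totals of tested genes. Per-kilobase values use the table's gene lengths. The ratio test takes differences of mean log2 ratios. The edgeR p-values rest on the spread among mice within groups, estimated over all 4 groups together and moderated across genes. The permutation p-values rest only on the libraries compared.

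Coordinates and exon counts come from GENCODE for GRCm38, in which 99.21% of gene IDs matched. On the opposite strand, exons of Krt10 overlap Gm11940 (634 counts in all, against 846223 for Krt10) and those of Krt5 overlap Gm44323 (0 counts). Gene lists were written by hand. Members and lists were chosen with earlier results of these data known. Named genes are all 6 keratins, up to 4 called genes per list with the largest log2 change and a mean of at least 5 CPM (otherwise values only), and the 3 genes most correlated with each keratin; Krt19 and the fibroblast and neutrophil examples follow counts. Some listed genes are not reported here. Between any 2 replicates counts differed by far more than sampling noise (at least 9.40 times by chi-square over its degrees of freedom). The fitting code was tested on simulated data. Alternatives were other scalings, filters, DESeq2, a replicate block, the identifier series, and leaving out each library.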

Additional observations from a re-analysis of the deposited data

Results flagged for a closer look

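Krt5 in ND_cont replicate 3 (3456 CPM) lay far above the other 3 ND_cont libraries, by Dixon's test of the highest value against the rest. Of 32 groups of 4 values examined it was the 1 found, and chance alone flags about 1 in 20 such groups. The same library was the highest of ND_cont in Krt1, Krt14 and Krt77 and not in Krt10 or Krt2. Without it, Krt5 was higher with HFD in untreated skin by log2 0.58 (adjusted p = 0.00386, edgeR) and higher with PMA in ND mice by 0.65.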

How the results depend on the processing

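Krt1 between diets and Krt14 with PMA were called in every setting run. Between untreated diets 4 keratins were called, against 1 with the identifier series as a covariate, 1 when scaled by desmosome genes (an alternative chosen after seeing the data) and 2 to 4 without 1 library. All genes called in those settings were 179, 305 and 336 to 889, against 691. For PMA in HFD mice the count was 2, against 1 with that covariate, 1 within the RHP libraries, 1 with desmosome scaling and 1 to 4 without 1 library; without HFD_PMA replicate 4 it was 4. It was 3 with DESeq2, the 5 CPM filter or the replicate block, where Krt2 was gained. All genes called for PMA in HFD mice were 1205 to 2469 without 1 library and 1760 to 2705 in the other settings, against 2101. For PMA in ND mice 3 keratins were called, against 1 with the covariate (453 of all genes, against 2279) and 2 to 3 without 1 library. For diet with PMA it was 1 throughout, and for the interaction 0. Desmosome scaling moved the median of all genes to log2 -0.11 and -0.13 between diets, so that keratin changes are read relative to it. The cause of these changes was not tested.

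The labels name no pairing of the samples. Same-numbered samples had deviations correlated at -0.07 to 0.20, and 2 of 16 pairs passed 0.1. Both were for PMA in HFD mice (replicate 1 at 0.20 and replicate 3 at 0.12). These correlations are a description and cannot exclude a pairing. With the replicate as a block the keratins called were 1, 4, 3, 3 and 0 for diet with PMA, diet without PMA, PMA with HFD, PMA with ND and the interaction. All genes called were then 358, 669, 1967, 2192 and 2 in the same order, against 387, 691, 2101, 2279 and 1. The ratio tests with the block, as an exact sign-flip test, gave Krt1 to Krt10 log2 differences of 1.20 and 1.26 between diets and 0.96 for PMA in ND mice, and Krt5 to Krt14 differences of -0.16, -0.55 and -0.48, each at p = 0.125, the smallest that 4 pairs allow. Without 1 library the Krt1 to Krt10 difference was 1.07 to 1.37 and 1.10 to 1.42 between diets with and without PMA, 0.78 to 1.08 for PMA with HFD and 0.81 to 1.12 with ND. Krt5 to Krt14 was -0.20 to -0.10 and -0.16 to -0.02 between diets, -0.60 to -0.48 for PMA with HFD and -0.52 to -0.40 with ND.

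Values that changed sign were near 0 and not called. Krt2 for PMA in ND mice (log2 0.02) was -0.025 with RLE factors, -0.044 with upper-quartile factors, -0.0082 with no filter, -0.027 at 5 CPM in 4 libraries, -0.011 in the 8 libraries, -0.0073 without mitochondrial genes, -0.026 with DESeq2 and -0.051 to 0.078 without 1 library. Krt5 between diets with PMA was -0.025 with desmosome scaling and -0.0044 to 0.11 without 1 library. Krt2 between diets with PMA was -0.25 to 0.043, and Krt77 between untreated diets -0.27 to 0.16, without 1 library.

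Counts over all genes ranged, for diet with PMA, from 116 without HFD_PMA replicate 2 (175 in the 8 libraries, 204 and 238 without ND_PMA replicates 3 and 4, 239 with desmosome scaling) to 887 with DESeq2, against 387. For diet without PMA they were 179 with the covariate, 305 with desmosome scaling, 336 to 889 without 1 library and 1211 with DESeq2, against 691. For PMA with HFD they were 1205 and 1396 without HFD_PMA replicate 2 and HFD_cont replicate 3, against 2101, and for PMA with ND 453 with the covariate, against 2279. The interaction gave up to 4 without ND_cont replicate 2 and 24 with DESeq2, against 1.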
